A study of Mus musculus with 8 samples.

Results

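Socs1, Socs2 and Cish encode inhibitors of cytokine signalling, and their loci were examined for binding of tyrosine-phosphorylated STAT3 in mouse embryonic fibroblasts. The loci were taken as windows of 110 kb for Socs1 (chr16:10730000-10840000), 120 kb for Socs2 (chr10:94820000-94940000) and 100 kb for Cish (chr9:107150000-107250000), on the mouse genome build mm9. A site was a peak of any of the 6 deposited lists that overlapped a window by 1 bp or more. No annotation of mm9 was used here, so that the windows hold these genes was taken as given, and gene names below stand for the windows. The windows held 5 sites, of 5343 distinct sites with an exact position in the whole series. Socs1 and Socs2 had 1 site each and Cish had 3.

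The fibroblasts were STAT3-/- and re-expressed either STAT3α, the full-length transcription factor, or STAT3β, the spliceform without the C-terminal transactivation domain. All groups carried the STAT3 deletion and received 1 nM 4-hydroxytamoxifen, which induces the spliceform, for at least 48 h, and all were kept without serum for 16 h. Groups were treated with 10 ng/mL human recombinant oncostatin M (OSM), an interleukin-6 family cytokine, for 30 or 180 min, or sampled at 0 min. Each spliceform had 1 list at each of 0, 30 and 180 min from chromatin immunoprecipitation and sequencing (ChIP-seq) of phosphorylated STAT3. Duplicate samples had been prepared and their reads merged, per the labels, so no value has a replicate error and no test across cultures was possible. The labels do not say whether each line was a single clone. The lists held 9, 3725 and 40 peaks for STAT3α and 12, 3891 and 120 peaks for STAT3β, at 0, 30 and 180 min. They give positions without heights or read numbers, so depth is unknown, and a site missing from a list is not shown to be unbound.

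OSM binds receptors that contain gp130, and the associated JAK kinases phosphorylate STAT3, which then forms dimers and binds DNA. Several genes of the SOCS family are induced by STAT factors and close a negative feedback loop. Their proteins carry an SH2 domain, which binds phosphotyrosine, and a SOCS box, which recruits a ubiquitin ligase. SOCS1 inhibits JAK kinases directly. SOCS2 is best known as a restraint on growth hormone signalling. CIS, the product of Cish, is a classical target of STAT5 and binds activated cytokine receptors. STAT dimers prefer DNA with the letters TTCNNNGAA, in which N is any base.

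Promoter sequence is shown for 2 of the 3 genes, Socs1 and Cish, so that the letters near their annotated starts can be read beside the site lists. The sequences come from RefSeq on GRCm38.p6, a different build from that of the peaks, so no peak was placed on them. The entry for Socs2 was missing. Position 1 is the annotated start, and negative positions lie before it. In Cish, the 30 bases from position 1 to 30 (chr9:107296659-107296688, plus strand) held TTCNNNGAA at positions 1 to 9 and 12 to 20, shown in capitals. The 250 bases before the Cish start (chr9:107296409-107296658, plus strand) held none. In Socs1, the 250 bases before the start (chr16:10785537-10785786, minus strand) held no TTCNNNGAA. Capitals there mark GAAANNGAAA, the type of element bound by interferon regulatory factors, at the overlapping positions -83 to -74 and -77 to -68.
Cish from the start: TTCCTGGAAagTTCTTGGAAatctgtcaaa
Cish before the start: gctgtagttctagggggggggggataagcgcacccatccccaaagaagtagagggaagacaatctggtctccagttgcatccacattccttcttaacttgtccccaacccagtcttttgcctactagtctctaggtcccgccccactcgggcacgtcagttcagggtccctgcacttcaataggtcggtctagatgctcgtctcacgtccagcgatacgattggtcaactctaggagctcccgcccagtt
Socs1 before the start: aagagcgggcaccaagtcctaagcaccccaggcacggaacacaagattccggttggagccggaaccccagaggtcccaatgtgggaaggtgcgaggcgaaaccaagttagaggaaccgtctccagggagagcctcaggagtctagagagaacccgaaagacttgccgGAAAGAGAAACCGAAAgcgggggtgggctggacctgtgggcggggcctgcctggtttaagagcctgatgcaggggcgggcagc

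TTCNNNGAA reads the same on both strands, and GAAANNGAAA was searched on both. Of 32851 RefSeq promoter windows of 300 bases (250 before and 50 after a start), 8.3% held TTCNNNGAA and 0.457% held it at least 2 times, as the Cish window did. GAAANNGAAA was in 3.44% of the windows, and in 0.225% at least 2 times, as in Socs1, where the matches overlap. This pattern was added after the sequences were seen, and 2 is the count found in Socs1 and in Cish. The shares are therefore descriptions and no test of either gene. The related letters TTCNNNNGAA, with 1 more base between the arms, were in 6.95% of all windows and in neither the Socs1 nor the Cish window. These are matches of letters and do not show that a factor was bound.

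The first question was which of the 3 windows had a listed phospho-STAT3 site. Each had at least 1, and all 5 sites were in a 30 min list. Socs1, the direct JAK inhibitor, had a single site at chr16:10785955-10786354. It was in the 30 min lists of both spliceforms and in none of the 0 and 180 min lists. Its midpoint lay 1.15 kb from the centre of the window, which is a reference point and not an annotated start. No other listed site was closer than 57.8 kb, and for STAT3α the next 30 min site was 195 kb away.

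Socs2 likewise had a single site, at chr10:94879324-94879723. It too was in both 30 min lists and in none of the 0 and 180 min lists. Its midpoint lay 0.476 kb from the window's centre. The nearest other site of any list was 79.7 kb away and was listed for STAT3β alone, and the nearest other STAT3α 30 min site was 274 kb away. Within these windows, Socs1 and Socs2 thus gave the same record, 1 site listed for both spliceforms at 30 min. This count depends on the window edge: with windows widened by 50 kb at each end, both held 2 sites, the added ones listed for STAT3β alone. The added site of Socs1 lay 4.15 kb outside its window.

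Cish had 3 sites, and the 30 min lists of the spliceforms differed in which of them they held. The site at chr9:107210133-107210532 was in both 30 min lists. The sites at chr9:107166397-107166796 and chr9:107198718-107199117 were in the STAT3α 30 min list and not in the STAT3β 30 min list. The STAT3α list thus held 3 Cish sites at 30 min and the STAT3β list held 1. Of all 5338 sites listed at 30 min, 42.7% were in both lists and 27.1% were listed for STAT3α alone. With 3 sites and 1 list per group, the Cish counts are not a result about the spliceforms. The middle site lay nearest to the centre of the window, at 1.08 kb, and was one of those listed for STAT3α alone. The shared site lay 10.3 kb above the centre, and the remaining site lay 33.4 kb below it. Gaps between neighbouring Cish sites were 31.9 and 11.0 kb. The nearest STAT3β 30 min site beyond the shared one was 305 kb from it.

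**Figure D1:**
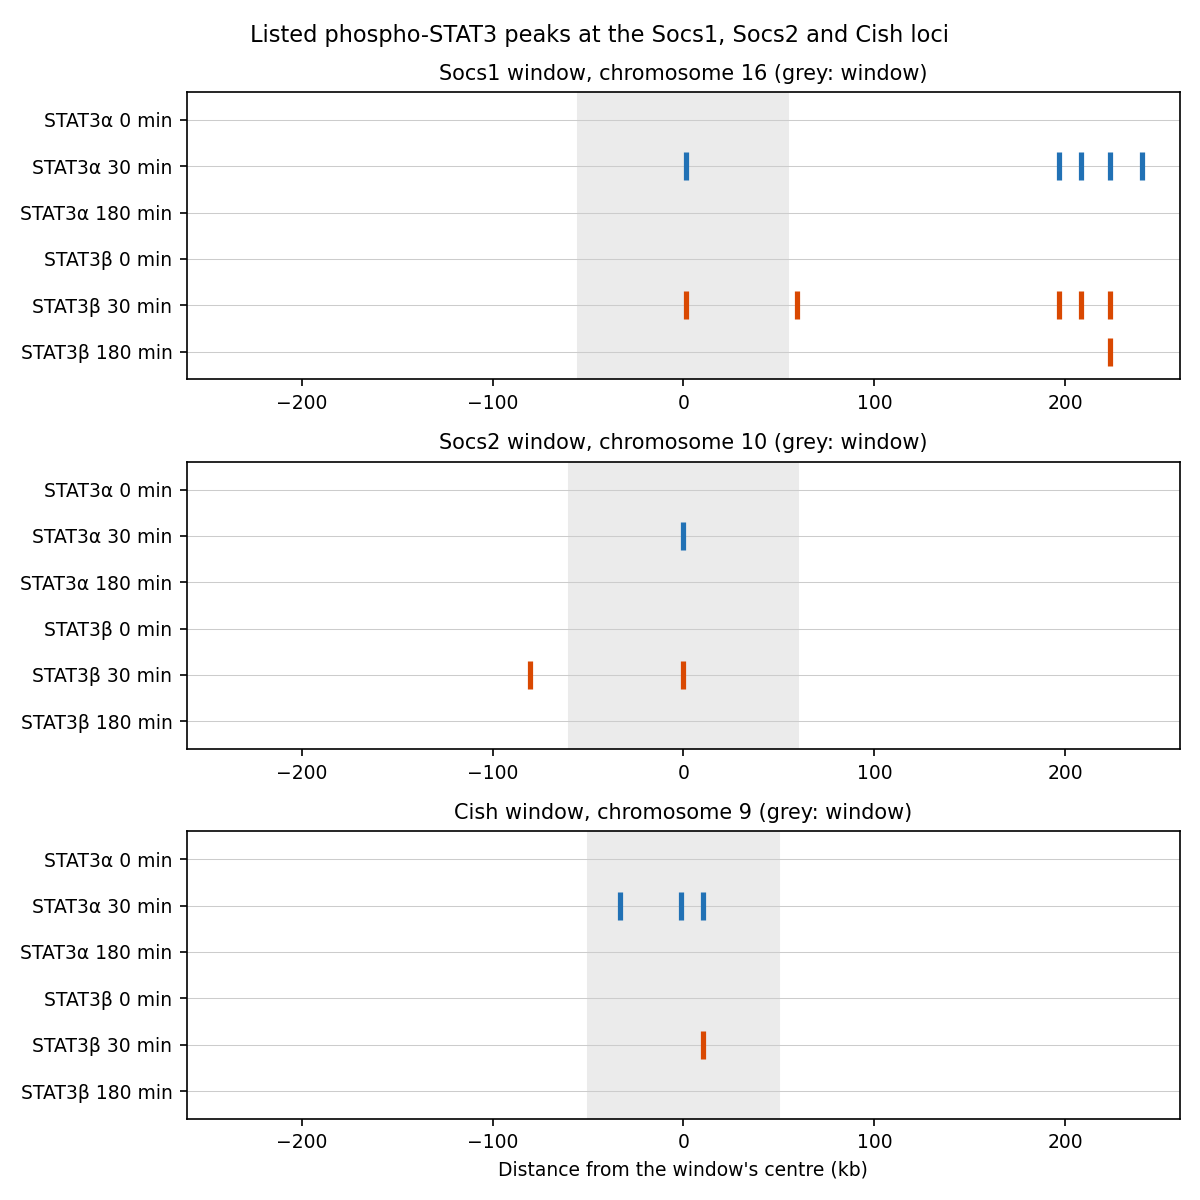
Listed peaks at the Socs1, Socs2 and Cish loci, with each of the 6 lists on its own line (blue for STAT3α, orange for STAT3β). The horizontal axis gives the distance of a peak's midpoint from the window's centre in kb, grey marks the window, and each tick is a peak. Inside the windows ticks occur at 30 min only, and Cish has 3 for STAT3α and 1 for STAT3β.

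Sites of the 3 windows were next set beside all sites of the 30 min lists. In the whole series 5338 sites were listed at 30 min, of which 42.7% were in both lists, 27.1% were listed for STAT3α alone and 30.2% for STAT3β alone. Of the 5 sites here, 3 were in both lists, 2 were listed for STAT3α alone and 0 for STAT3β alone. The shared part was 60%, with a 95% exact (Clopper-Pearson) interval of 14.7 to 94.7%. The interval covers counting over sites only. It treats the 5 sites as independent, though 3 are neighbours at Cish, and is no test against the 42.7% of all sites. For the STAT3α list the count was 5 of 5, where that list held 69.8% of all 30 min sites. For the STAT3β list it was 3 of 5, against 72.9% of all 30 min sites. With 5 sites and 1 list per group, neither count is a result about the spliceforms.

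The chromosomes of the 3 loci differed in how their 30 min sites were divided. On chromosome 9, which carries Cish, 39.4% of 249 sites were listed for STAT3α alone and 18.5% for STAT3β alone. Without the 3 sites of the Cish window these shares were 39.0% and 18.7%, and so few sites could not have changed them much. Sites for STAT3α alone thus outnumbered those for STAT3β alone on chromosome 9, and 2 of the former were at Cish. On chromosome 10, which carries Socs2, the division was the opposite, with 17.2% of 268 sites for STAT3α alone and 41.0% for STAT3β alone. Chromosome 16, with Socs1, had 27.2% and 30.0% of 213 sites, close to all chromosomes. The share of sites in both lists was 42.2%, 41.8% and 42.7% on chromosomes 9, 10 and 16. What sets the division on a chromosome was not tested.

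**Figure D2:**
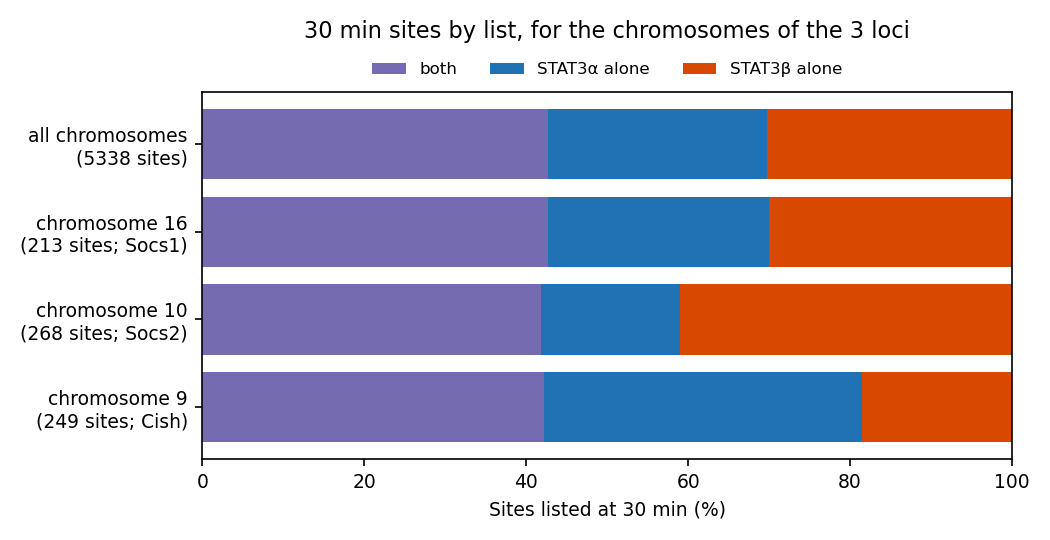
Division of 30 min sites between both lists (purple), STAT3α alone (blue) and STAT3β alone (orange), in percent of sites, for all chromosomes and for those of Socs1 (16), Socs2 (10) and Cish (9). Sites of STAT3α alone reach 39.4% on chromosome 9 and 17.2% on chromosome 10, while the shared part stays between 41.8 and 42.7%.

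The number of sites per locus was read against a fixed tiling of the genome. Of 23865 tiles of 110 kb, the length of the Socs1 window, 15.4% held at least 1 site. Of 21878 tiles of 120 kb, as for Socs2, 16.4% did. Of 26252 tiles of 100 kb, as for Cish, 14.3% held at least 1 site and 1.28% held at least 3. The highest count in a 100 kb tile was 9, so the 3 Cish sites were fewer than in the most crowded tiles. The windows were chosen for known genes with results of these lists in view, and tiles include gene deserts. The percentages therefore describe the tiles and are no test of the loci. Among all sites the median gap to the nearest other site was 45.8 kb. The sites of Socs1 and Socs2 stood farther apart from their neighbours than this, and the 3 Cish sites stood closer. This largely restates the window counts. A lone site near the centre of a window of 110 or 120 kb cannot have a neighbour within 45.8 kb. With 3 sites in 100 kb there is little room for long gaps. None of the 5 had another site within 10 kb, which 23.5% of all sites had. With 5 sites, 3 of them neighbours at Cish with gaps of 31.9 and 11 kb, that count says little.

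**Figure D3:**
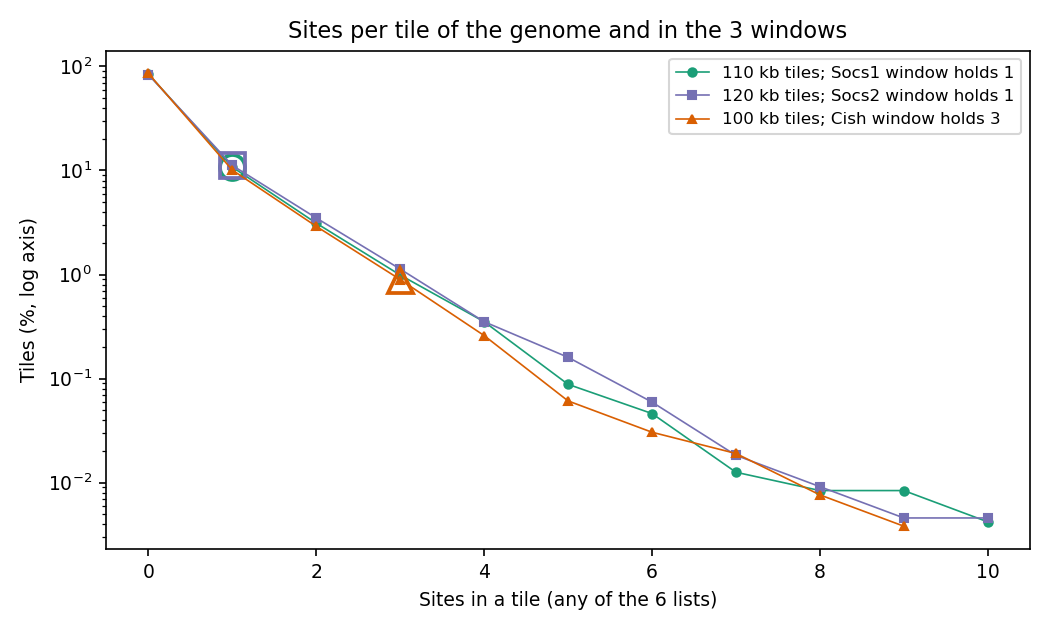
Percent of genome tiles (log axis) by the number of sites in a tile, over all 6 lists, for tiles as long as each window. Large open symbols mark the counts of the Socs1 and Socs2 windows (1 site) and of the Cish window (3 sites), which occur in 10.8%, 11.2% and 0.895% of tiles of that length.

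The time course was the last comparison. No site of the 3 windows was listed before OSM, where 0.169% of all 30 min sites were in a 0 min list. None was listed again at 180 min. For STAT3α this was 0 of 5 sites, against 0.94% of all STAT3α 30 min sites. For STAT3β it was 0 of 3 sites, against 3.03% of all STAT3β 30 min sites. Among the 2278 sites in both 30 min lists, 5.27% were in either 180 min list. The 5 sites thus shared their absence at 180 min with nearly all 30 min sites. With 0 of 5 and 0 of 3 sites the upper 95% exact limits were 52.2% and 70.8%. Peak height at 30 min is not listed, so a partial loss of signal by 180 min could not be measured.

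The 180 min sites nearest to the windows lay outside them. For STAT3β the nearest to Socs1 was at chr16:11008244-11008643, 168 kb above the window, and it was in both 30 min lists as well. The nearest STAT3β 180 min site to Socs2 lay 5.61 Mb below the window and the nearest to Cish 6.61 Mb below. For STAT3α the nearest to Socs1 lay 13.6 Mb above, chromosome 10 carried none, and the nearest to Cish lay 85.4 Mb below. The STAT3α 180 min list held 2 peaks on chromosome 16 and 1 on chromosome 9. The STAT3β 180 min list held 7, 8 and 3 peaks on chromosomes 16, 10 and 9. With so few peaks per chromosome, the distances are no result about the loci or the spliceforms. Positions had been rounded for some 0 min peaks, but none of the rounded peaks was on chromosomes 9, 10 or 16.

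The surroundings of the windows limit how far a site can be attributed to a gene. In the gene order of GRCm38.p6, Socs1 stands between Clec16a and the sperm protein gene Tnp2, Socs2 between Cradd and Mrpl42, and Cish between Mapkapk3 and Hemk1. A site in a window was not assigned to a gene, and a site near Cish may lie in or near a neighbour. The first site beyond the Socs1 window, at chr16:10844154-10844553, was listed at 30 min for STAT3β alone. The first site beyond the Socs2 window, at chr10:94799196-94799595, was 20.4 kb outside and also for STAT3β alone. Around Cish the nearest outside site, at chr9:107515063-107515462, was 265 kb beyond the edge and in both 30 min lists. The Cish count was the same with the wider window.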

How the data were processed

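ChIP-seq peak lists of 6 samples were used, 1 per spliceform and OSM time. Input DNA (2 samples) was not analysed here. The submitters' processing notes name the build mm9 and, without their roles, the peak caller MACS2 2.1.1.20160309, HOMER 4.9, bedtools, the aligner STAR 2.5.0a and the trimmer Trim Galore 0.4.2. How peaks were thresholded, and whether input was used for it, is not stated there. Per the labels, the authors deposited 1 list per sample from merged reads. Each list gives chromosome, start, end and name. Some 0 min positions of 100 Mb and more were deposited rounded to 3 digits, and these 6 peaks (2 for STAT3α, 4 for STAT3β) were left out of the site set.

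Groups came from sample titles, and positions count from 1. Where peaks of 2 lists overlapped, their intervals were the same, so a site is a distinct interval. No 2 sites overlapped in part. Whether a site is in both lists or in 1 rests on how peaks were assigned to lists, which is not known here. The windows, members and gene lists were chosen with earlier results of these data known, and every site in a window is named. Counts are descriptions, with no statistical test. Tiles ran from position 1 of each chromosome to its last site, and sites were placed in them by midpoint. The code that counts sites in windows, clusters and tiles was checked on simulated positions, which says nothing about the counts themselves. GAAANNGAAA and TTCNNNNGAA were added as searches after the promoter sequences were seen. The planned motif search under peaks, the site counts at other regulators of JAK-STAT signalling and the protein comparison were not run. The reason was that no mm9 genome, mm9 annotation or protein table was used here. Calculations used Python 3.11.15 and scipy 1.17.1, and plots matplotlib 3.10.9.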

Additional observations from a re-analysis of the deposited data

How the results depend on the processing

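Of 63 alternative values for 27 results, 59 were within 1.5 times the reported count, or, for shares of tiles, within the 95% exact interval, and 4 moved. The exceptions came from windows widened by 50 kb at each end. Then the Socs1 window held 2 distinct sites and the Socs2 window 2, and the STAT3β 30 min list held 2 in each. Narrowing by 25 kb at each end left Cish with 2 sites, without the site at 107166397 that was listed for STAT3α alone. That loss was counted as within 1.5 times. Many of the other values are counts of 0 at 0 and 180 min, which say little about stability. Joining sites less than 10 kb apart could not change a count. Accepting a peak of the other list within 1 or 10 kb could not either. No site in the windows had another site within 10 kb. Rounded 0 min positions could not add a site, since none was on the chromosomes of the windows. The share of kept values is therefore no measure of stability. No paired analysis was possible because each spliceform and time has 1 merged list and no test was run, and for the same reason no replicate was left out. The lists hold no read numbers, so the depth behind a missing site is unknown.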

Other observations

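Sites were also counted within 500 kb on either side of the windows, 1000 kb in all. Over 2637 genome tiles of 1000 kb the median was 1 site and the quartiles were 0 and 3. Around Socs1 there were 8 further sites, of which 5 were in both 30 min lists, 1 was listed for STAT3α alone and 2 for STAT3β alone, and 1 was listed again at 180 min for STAT3β. Around Socs2 there were 6, of which 2 were in both lists, 1 for STAT3α alone and 3 for STAT3β alone. Around Cish there were 2, both in the lists of both spliceforms. None of the sites around Socs2 and Cish was listed at 180 min. Among all 30 min sites 42.7% were in both lists, 27.1% were for STAT3α alone and 30.2% for STAT3β alone. The division around each locus was not tested against these shares.

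Promoter windows of other genes that regulate JAK-STAT signalling were also searched for TTCNNNGAA. Of 14 such genes (other SOCS genes, phosphatases, PIAS genes and Sh2b3), 8 had a promoter entry, and 1 of these held the letters. It was Socs3, the main feedback inhibitor of gp130 signalling, with TTCTTAGAA at positions -154 to -146. Among Socs1 and Cish, the members with an entry, Cish held them. Of all 32851 promoter windows 8.3% held the letters. That is a share of windows and not of genes, and Pias3 had 2 windows. Beside it, 1 of 8 genes is close to what promoters in general gave. These counts describe letters in promoter sequence and do not use the peak lists.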
